A study of Homo sapiens with 5 samples.

Results

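The cytosolic ribosomal protein genes were described across 5 RNA libraries of HCT116 cells. The genes were chosen by symbol, as those named RPL or RPS with a number, an optional A, X or L and an optional second number, together with RPLP0, RPLP1, RPLP2 and RPSA. RPS27L was left out. This gave 86 of the 57773 genes in the table, 53 of the large subunit and 33 of the small subunit. Averaged over the 5 libraries, 81 of them reached 1 TPM or more, 49 large and 32 small, against 14180 of all genes. TPM is transcript abundance corrected for length and scaled to a fixed total, so each value is a share of its library.

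HCT116 is a human colorectal carcinoma line, and the series describes the cells used as a Dicer knockout, so every group, the control included, lacks the enzyme that releases mature microRNAs from their precursors. One library each came from cells transfected with methylated let-7a (labelled let7a-19A), native let-7a, methylated miR-17 (labelled miR17-13A), native miR-17 and a negative control. Which methyl group was used, how many clones, which dose and what time after transfection are not stated in the labels. With 1 library per group no difference has a replicate check, so no test, p-value or standard deviation is given. In bulk RNA, fewer cells of a kind and less RNA per cell cannot be told apart. The numbers 19 and 13 in the labels were read as positions counted from the 5′ end, and both positions hold an adenosine in the RefSeq mature sequences (GRCh38.p14). These are shown because the seeds, bases 2 to 8 in capitals, define the sites searched for further on.
hsa-let-7a-5p: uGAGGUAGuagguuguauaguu
hsa-miR-17-5p: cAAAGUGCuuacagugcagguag

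Ribosomal proteins assemble with ribosomal RNA into a large subunit, which joins amino acids, and a small subunit, which reads the mRNA. Their mRNAs are short, very abundant and usually begin with a C followed by a run of pyrimidines, the terminal oligopyrimidine (TOP) motif, through which mTOR and the RNA-binding protein LARP1 control their translation and stability. Growing carcinoma cells devote a large part of their mRNA to them.

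The libraries listed between 14173 and 14396 genes at 1 TPM or more, and mitochondrially encoded genes took 9.36% to 12.6% of the TPM. Of 9 epithelial markers, 7 were above 1 TPM in every library, with VIL1 at 0 and LGALS4 under 1 TPM throughout. Their summed level was 7178 and 7580.5 TPM with methylated and native let-7a, 8803 and 8530.2 TPM with methylated and native miR-17, and 7298.6 TPM in the control. Blood markers summed to between 4 and 4.4 TPM, nearly all LYZ, fibroblast markers to between 11.2 and 16.8 TPM, nearly all COL1A1, and endothelial markers to between 0.3 and 0.8 TPM. PTPRC and DCN were at 0 in all 5 libraries.

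The summed level of the ribosomal protein genes was lowest in the negative control and highest with methylated miR-17. It was 157931 TPM with methylated let-7a, 156630 TPM with native let-7a, 176080 TPM with methylated miR-17, 158239 TPM with native miR-17 and 141487 TPM in the control. Methylated miR-17 was therefore 1.24 times the control, and the other microRNA libraries lay together at 1.12, 1.11 and 1.12 times for methylated let-7a, native let-7a and native miR-17. Both subunits had this order of highest and lowest. The large subunit summed to 89945.6, 89496.9, 99858.9 and 89593 TPM in the microRNA libraries in the order just given and to 80908.5 TPM in the control, and the small subunit to 67985.8, 67133.6, 76221 and 68646 TPM and to 60578.6 TPM in the control. The ratio of the large to the small sum moved little, between 1.31 and 1.34. With the mitochondrially encoded genes taken out of the total, the ribosomal protein genes held 17.9%, 17.4%, 19.4% and 17.8% of the TPM in the same order, against 16.2% in the control.

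**Figure D1:**
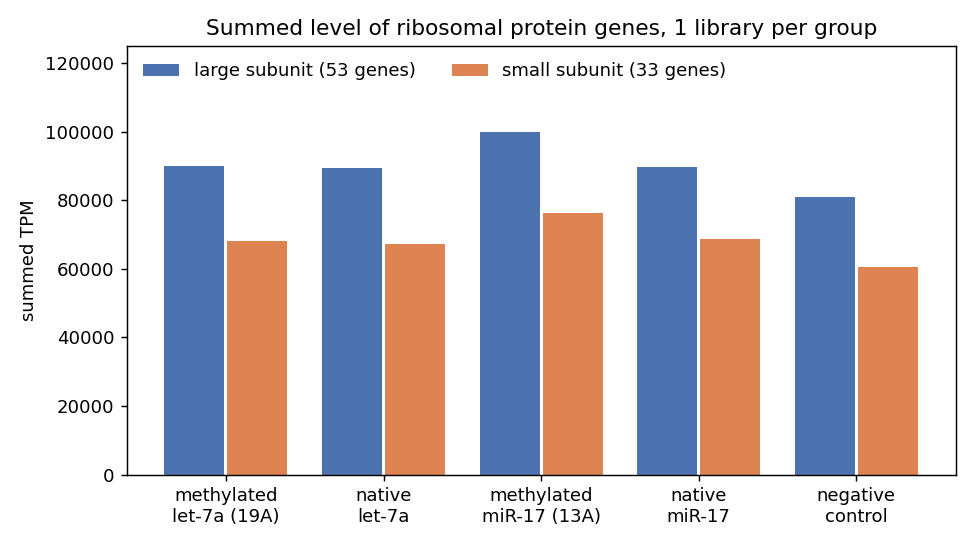
Summed TPM of the 53 large and 33 small subunit genes (y axis, from 0) in each of the 5 libraries (x axis), 1 library per bar pair and no error bars. Both bars are highest with methylated miR-17 and lowest in the negative control.

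The most abundant members were RPS2, at the mRNA entry of the small subunit, RPL41, a very short peptide bridging the subunits, RPS12, RPL13A and RPS18. RPS2 had 7620.1 TPM with methylated let-7a, 7419.6 TPM with native let-7a, 8428.5 TPM with methylated miR-17, 7791.8 TPM with native miR-17 and 6976.8 TPM in the control. RPL41 had 7752.3, 7373.8, 8805.5 and 7598.3 TPM in the microRNA libraries in that order, against 6459.2 TPM in the control. RPS12 had 7220, 7314.3, 8597.4 and 7609.1 TPM in them, against 6171.4 TPM in the control. For all 3 genes methylated miR-17 was the highest library and the control the lowest, with ratios of 1.21, 1.36 and 1.39 between them. RPL13A, known also for a role outside the ribosome in repressing inflammatory mRNAs, differed less, at 6353.8 TPM with methylated miR-17 and 5469.5 TPM in the control, and RPS18 stood at 6142.6 and 4778.7 TPM in these libraries.

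Although the ribosome holds its proteins in nearly equal numbers, their mRNA levels were spread 18.8-fold. Among 76 members, without paralogs, levels ranged from a mean of 406.34 TPM for RPS26 to 7647.36 TPM for RPS2, with a median of 1557 TPM. The medians of the subunits were close, at 1537 TPM (large) and 1581 TPM (small). A mean of 1000 TPM was passed by 52 members, and 18 of the 50 genes with the highest means were ribosomal protein genes. The order of members hardly changed between libraries: Spearman's rho between the levels of 81 members lay between 0.993 and 0.998 over the 10 pairs of libraries, a description across genes that share the same annotation and lengths. The difference between libraries was a common shift much smaller than the spread among genes, with a median ratio of 1.23 between a member's highest and lowest library.

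**Figure D2:**
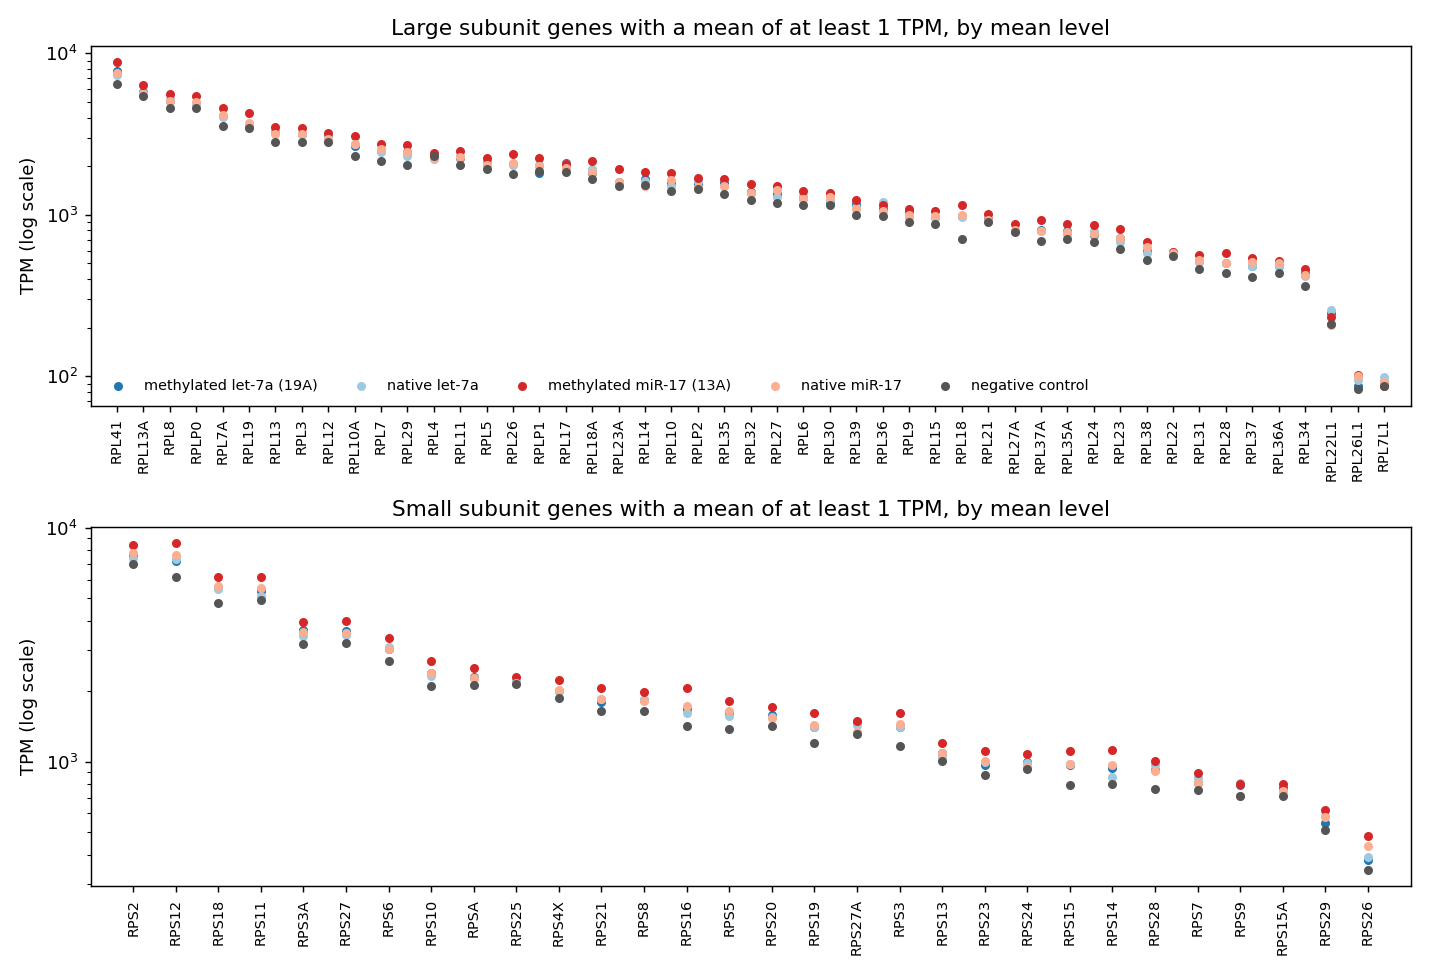
TPM (y axis, log scale) of 49 large and 30 small subunit genes averaging 1 TPM or more, ordered by mean (x axis), with 1 point per library. The red points (methylated miR-17) lie on top and the dark grey points (control) at the bottom for most genes.

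The members below a mean of 1 TPM were RPL10L, RPL3L, RPL39L, RPL12L3 and RPS10L. RPL10L, a testis paralog of RPL10, peaked at 1.1 TPM with native let-7a, RPL3L, a muscle paralog of RPL3, at 0.7 TPM and RPL39L, a testis paralog of RPL39, at 0.5 TPM, the last 2 with methylated miR-17. RPL12L3 and RPS10L, which GENCODE 29 gives as processed pseudogenes, were listed at 0 in all 5 libraries. Of the paralogs above the minimum, RPL22L1 had 244.7 TPM with methylated let-7a, 256.3 TPM with native let-7a, 233.8 TPM with methylated miR-17, 208.1 TPM with native miR-17 and 209.7 TPM in the control. RPL26L1 lay between 83 and 102.1 TPM and RPL7L1, whose yeast relative helps to assemble the large subunit, between 86.4 and 99.4 TPM. RPL22L1 and RPL7L1 were highest with native let-7a, unlike most members.

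Against the negative control, almost all members were higher with each microRNA. All differences are differences of log2(TPM + 1), the first library minus the second, which understate changes of low genes. With methylated let-7a 79 of 81 members were above the control (47 of 49 large, 32 of 32 small, medians 0.15 and 0.16), against 41% of all genes. With native let-7a 80 of 81 were above it (48 large, 32 small, medians 0.17 and 0.16), against 49.9% of all genes. With methylated miR-17 80 of 81 were above it (48 large, 32 small, medians 0.30 and 0.32), against 42.1% of all genes. With native miR-17 78 of 81 were above it (46 large, 32 small, medians 0.16 and 0.16), against 51.5% of all genes. The medians of all genes in these comparisons were -0.04, 0, -0.06 and 0.02. Of other genes averaging 100 TPM or more and under 1000 nt, 66.3%, 78.8%, 84.1% and 73.6% were above the control in the same order. The 4 comparisons share the control library, so a low value there raises all 4 together and they do not count as separate evidence.

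The shift was small for most members, though not for RPL18, described further on. Many members were at least 25% above the control with methylated miR-17 alone. A TPM + 1 at least 25% above the control, a rule of size and not a test, was reached by 2 members with methylated let-7a (8.96% of all genes reached it), by 3 with native let-7a (12.8% of all genes), by 35 with methylated miR-17, 19 large and 16 small (14.9% of all genes), and by 3 with native miR-17 (17.9% of all genes). For both let-7a forms and native miR-17 the share of members at this mark was thus below that of all genes. With methylated miR-17 it was near that of other short, abundant genes. Of other genes averaging 100 TPM or more and under 1000 nt, 39.9% reached it, against 43.2% of members of that length. No member was lower by the same factor in any comparison with the control. Among all genes the shares lower were 10.2% with methylated let-7a, 11.7% with native let-7a, 25.2% with methylated miR-17 and 15.5% with native miR-17. The count of 35 depended on the scaling, with 22 members after removing mitochondrially encoded genes, 56 after centring on the median of all genes and 2 after centring on other abundant genes under 1000 nt, the last chosen after seeing the data. With the mean of the let-7a libraries in place of the control it was 0.

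**Figure D3:**
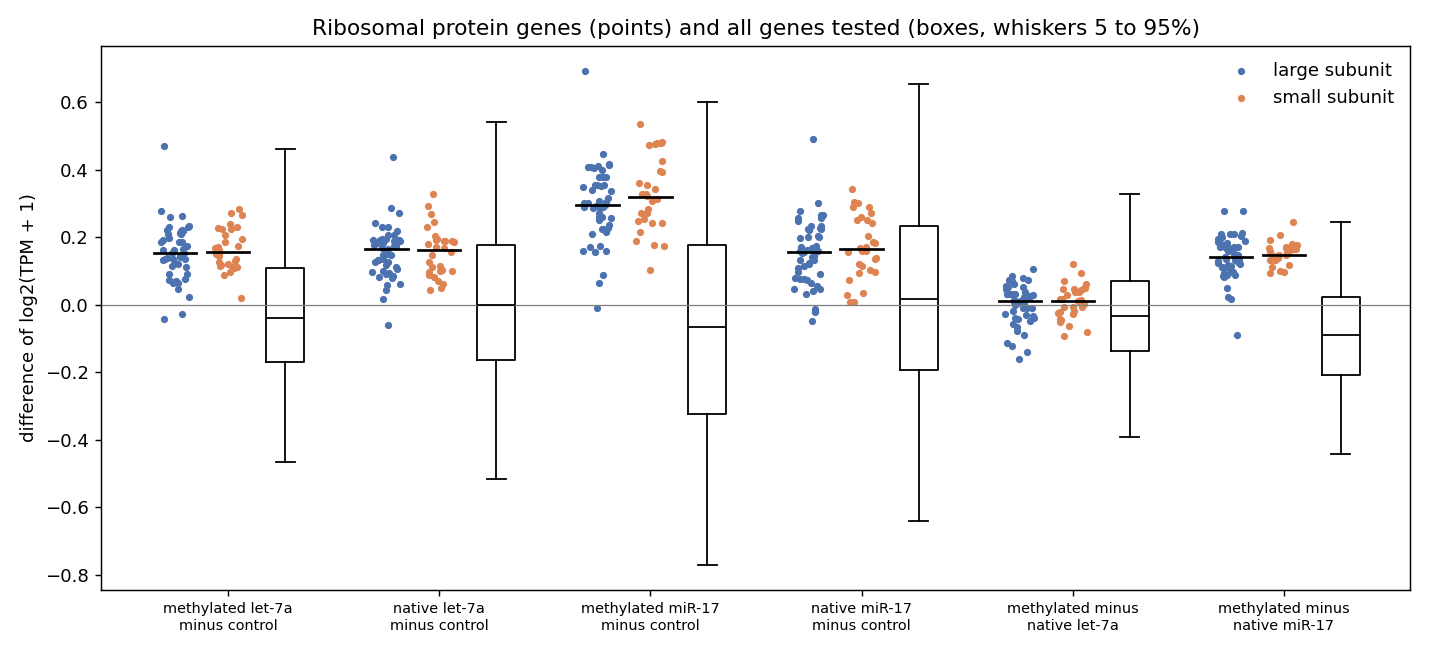
Differences of log2(TPM + 1) (y axis) in the 6 comparisons (x axis), 1 point for each of 79 members, black bars at the median of all tested members of each subunit, beside boxes for all 14180 genes tested (quartiles, whiskers at 5% and 95%). The members form narrow bands above 0 against the control, highest with methylated miR-17, within the wider range of all genes.

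Across the 5 libraries, methylated miR-17 was the highest for 74 of 81 members (44 large, 30 small), against 12.6% of all genes. The control was the lowest for 76 of 81 (44 large, 32 small), against 21.1% of all genes. Both held for 71 members, and for 5.78% of all genes. Exceptions to the first included RPL17, highest with methylated let-7a, and 5 genes highest with native let-7a, which were RPL36, RPL22, RPS9, RPL22L1 and RPL7L1. Exceptions to the second were RPLP1, RPL4, RPL7L1, RPL14 and RPL22L1, all of the large subunit.

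The stalk of the large subunit, which recruits translation factors, was shifted less than the median member. RPLP0, its base, had 4910.3 TPM with methylated let-7a, 4882.7 TPM with native let-7a, 5405.3 TPM with methylated miR-17, 4978.1 TPM with native miR-17 and 4612.7 TPM in the control. RPLP1, an arm of the stalk, had 1825.5, 2039.3, 2252.3 and 2010.5 TPM in the microRNA libraries in that order, against 1879.7 TPM in the control. Methylated let-7a was its lowest library. RPLP2, the partner of RPLP1, had 1552.9, 1614, 1681.1 and 1493 TPM in them and 1437.3 TPM in the control, and so did not share that low value. Over these genes and RPL12, which holds the stalk to the ribosomal RNA, the median differences from the control were 0.10, 0.11, 0.23 and 0.08 for methylated let-7a, native let-7a, methylated miR-17 and native miR-17.

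RPL5 and RPL11 carry the 5S ribosomal RNA and, outside the ribosome, bind and inhibit MDM2, a ubiquitin ligase. RPL5 had 2128.9 TPM with methylated let-7a, 2112.8 TPM with native let-7a, 2237.6 TPM with methylated miR-17, 2038.3 TPM with native miR-17 and 1934 TPM in the control. RPL11 had 2247.3, 2311.2, 2490.4 and 2273 TPM in the microRNA libraries, against 2022.2 TPM in the control. Both were higher than the control in every microRNA library, with differences of 0.21 (RPL5) and 0.30 (RPL11) for methylated miR-17.

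Among the 7 proteins lining the exit tunnel, through which the new chain leaves, 1 stood out as flat. RPL4, whose loop reaches into the tunnel, had 2268.2 TPM with methylated let-7a, 2217.5 TPM with native let-7a, 2413.3 TPM with methylated miR-17, 2235 TPM with native miR-17 and 2309.6 TPM in the control. It was below the control in 3 of the 4 microRNA libraries. RPL26, at the tunnel exit, had 2071.7, 2025.1, 2362.4 and 2083 TPM in the microRNA libraries and 1782.4 TPM in the control. RPL23A, a docking site of the signal recognition particle, had 1602.7, 1566.9, 1923.8 and 1585 TPM in them and 1504.4 TPM in the control, so that methylated miR-17 alone stood well above the rest. The medians of the 7 were 0.19, 0.15, 0.31 and 0.11 for methylated let-7a, native let-7a, methylated miR-17 and native miR-17 against the control.

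On the side of peptidyl transfer, all 5 members were above the control with each microRNA. RPL10A, of the stalk through which the spent tRNA leaves, had 2668.1 TPM with methylated let-7a, 2727.6 TPM with native let-7a, 3081.1 TPM with methylated miR-17, 2737.6 TPM with native miR-17 and 2306.6 TPM in the control, the highest differences of the group (0.21, 0.24, 0.42 and 0.25). RPL27A, near the catalytic centre, was the lowest of them, at 796.8, 806.8, 875.4 and 809.5 TPM in the microRNA libraries and 783.3 TPM in the control. RPL3, RPL8 and RPL10 lay between, with differences of 0.29, 0.29 and 0.38 for methylated miR-17.

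In the small subunit, 7 listed proteins at the decoding centre and along the mRNA channel had higher medians than the subunit as a whole. The medians were 0.23, 0.19, 0.39 and 0.25 for methylated let-7a, native let-7a, methylated miR-17 and native miR-17 against the control. The list is not complete. RPS9, at the mRNA entry, and RPS26, at the mRNA exit, are outside it, with 0.18 and 0.48 for methylated miR-17. RPS15, whose tail reaches the decoding centre, had 968.8 TPM with methylated let-7a, 973.7 TPM with native let-7a, 1110.3 TPM with methylated miR-17, 972 TPM with native miR-17 and 794.9 TPM in the control. RPS3, at the mRNA entry and also a DNA repair protein, had 1409, 1407.1, 1620.1 and 1440.1 TPM in the microRNA libraries and 1166.4 TPM in the control. RPS28, at the mRNA exit, had 921.7, 961.7, 1007.9 and 911.1 TPM in them and 765.6 TPM in the control. All 3 were well below every other library in the control, and with methylated miR-17 5 of the 7 were at least 25% above it. RPS2 and RPS27, also of the list, were below the small subunit median with methylated miR-17 (0.27 and 0.31 against 0.32). The same held with native let-7a (0.09 and 0.11 against 0.16).

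RPS6, the substrate of the S6 kinases downstream of mTOR, had 3030.5 TPM with methylated let-7a, 3088.5 TPM with native let-7a, 3388.2 TPM with methylated miR-17, 3029 TPM with native miR-17 and 2697.1 TPM in the control. RPSA, also known as the laminin receptor, had 2302.6, 2273.1, 2512.9 and 2273.5 TPM in the microRNA libraries and 2124.6 TPM in the control. RPS27A, made as a fusion with ubiquitin, had 1477.7, 1431.9, 1495.7 and 1339.3 TPM in them and 1311.6 TPM in the control. These followed the common order, with native miR-17 close to the control for RPS27A (0.03).

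Of 10 members mutated in Diamond-Blackfan anaemia or lost in the 5q- syndrome, all were above the control in each microRNA library, with medians of 0.15, 0.16, 0.30 and 0.18 for methylated let-7a, native let-7a, methylated miR-17 and native miR-17. RPS19, the gene most often mutated in the anaemia, had 1403.9 TPM with methylated let-7a, 1409.5 TPM with native let-7a, 1614.8 TPM with methylated miR-17, 1437.5 TPM with native miR-17 and 1201.1 TPM in the control. RPS14, the gene of the 5q- syndrome, had 937.7, 862.6, 1120.3 and 970.7 TPM in the microRNA libraries and 803.1 TPM in the control. RPS26, at the mRNA exit, had 380.7, 392.2, 478.7 and 436.4 TPM in them and 343.7 TPM in the control, and both miR-17 libraries were above both let-7a libraries for it.

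In the large subunit, RPL18 had the highest difference from the control in each of the 4 microRNA libraries. It had 986 TPM with methylated let-7a, 963.7 TPM with native let-7a, 1150.9 TPM with methylated miR-17, 999.2 TPM with native miR-17 and 711.1 TPM in the control, differences of 0.47, 0.44, 0.69 and 0.49. The control was the library that stood away from the other 4 here. When the mean of the miR-17 libraries took the control's place the let-7a differences of RPL18 were below 0 (-0.12 and -0.16). That mean includes methylated miR-17, the highest library of RPL18. RPS16, whose tail touches the tRNA held with the growing chain, had 1672.9, 1616.9, 2052.4 and 1730.4 TPM in the microRNA libraries and 1415.5 TPM in the control, and its difference of 0.54 with methylated miR-17 was among the highest of the small subunit. RPL34 with methylated let-7a (437.3 TPM against 360.1 TPM in the control) and RPL37 with native miR-17 (506.5 TPM against 410.7 TPM in the control) were next to RPL18 among large subunit genes in their comparisons.

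At the other end, RPS25, a small subunit protein needed by several viral internal ribosome entry sites, was nearly level. It had 2175.3 TPM with methylated let-7a, 2212.5 TPM with native let-7a, 2308.5 TPM with methylated miR-17, 2160.1 TPM with native miR-17 and 2146.9 TPM in the control. RPS9, at the mRNA entry, was level with native miR-17 (713.9 TPM against 709.8 TPM in the control) and higher in the other 3, at 795.1, 807.3 and 802.3 TPM. RPL22, dispensable for translation in mice and bound by a viral RNA in human cells, spanned the narrowest range of the 81 members, at 590.1 TPM with native let-7a, its highest library, and 552.7 TPM in the control, its lowest. RPL14 had 1668.6, 1624.6, 1833.6 and 1510.9 TPM in the microRNA libraries and 1532.6 TPM in the control, and native miR-17 was its lowest library.

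The methylated and native forms were then compared, which asks what the methyl group changed for the same microRNA. For let-7a the members hardly differed. Methylated let-7a was above native let-7a for 48 of 81 members (30 large, 18 small, medians 0.011 and 0.013), against 39.8% of all genes, whose median was -0.03. No member differed by that factor in either direction, against 5.15% of all genes higher and 7.02% lower. Few other abundant genes did: of 1341 averaging 100 TPM or more, 14 were higher and 17 lower by it. For miR-17, methylated was above native for 80 of 81 members (48 large, 32 small, medians 0.14 and 0.15). It was so for 28.4% of all genes, whose median was -0.09, and for 51.9% of other genes averaging 100 TPM or more. Of the latter under 1000 nt, 84.6% were higher. Here too no member differed by that factor in either direction, against 3.6% of all genes higher and 11% lower. Of the 1341 other abundant genes, 5 were higher and 18 lower by it. These comparisons share no library.

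With methylated miR-17 the difference from the native form was narrow across members, with the middle 50% between 0.12 and 0.17. It was highest for RPL23A and RPL14, given above, at 0.28 each, and in the small subunit for RPS16 (0.25) and RPS14 (0.21). It was lowest for RPL7L1, at 86.4 TPM with methylated and 92 TPM with native miR-17, the single member below 0 (-0.09). RPL26L1 (102.1 TPM against 100.8 TPM with native miR-17) and RPL22 (587.3 TPM against 578 TPM) were nearly level.

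With let-7a the extremes were RPLP1, at 1825.5 TPM with methylated and 2039.3 TPM with native let-7a (-0.16), RPL36, at 1084.4 and 1193.7 TPM (-0.14), and at the upper end RPS14, at 937.7 and 862.6 TPM (0.12), and RPL9, at 1047.8 and 972.9 TPM (0.11). In the small subunit RPS29, at 548.1 and 584.9 TPM (-0.09), and RPS7, at 805.4 and 852.5 TPM (-0.08), were lowest. RPL9 shares sequence with a pseudogene row described further on, and its difference was 0.06 when that row was added to it. The miR-17 difference was above the let-7a difference in 81 of 81 members, and the signs were opposite in 32. Neither count was taken over other genes, so neither is shown to be particular to the members. Other genes averaging 100 TPM or more and under 1000 nt had medians of 0.10 for miR-17 and -0.08 for let-7a. Across the members the 2 differences were weakly related (Pearson's r 0.27, Spearman's rho 0.15 over 81 members that are not independent of each other).

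**Figure D4:**
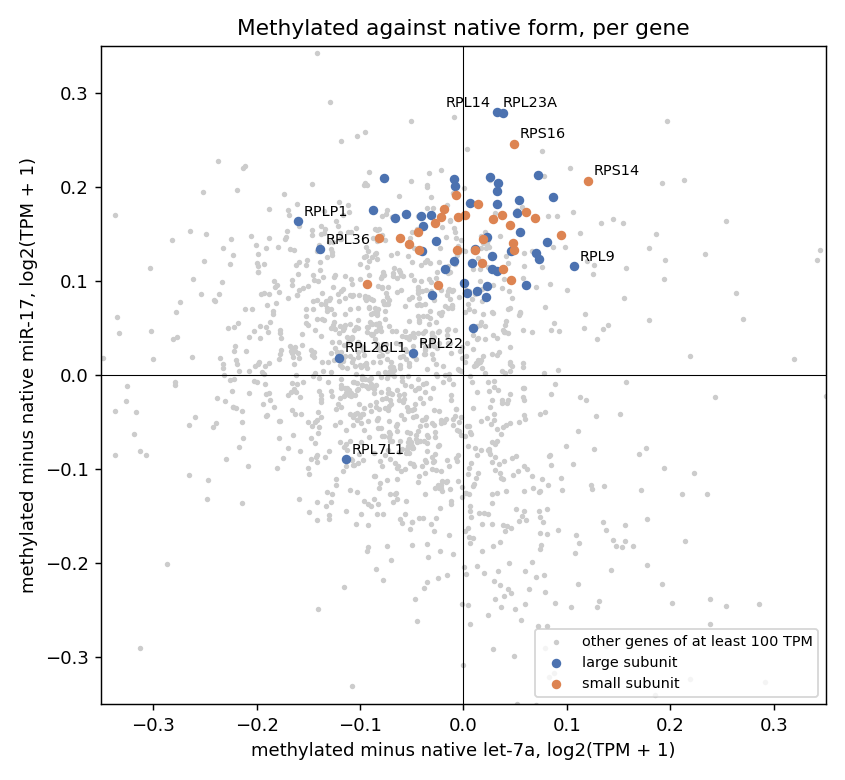
Methylated minus native form in log2(TPM + 1) for let-7a (x axis) and miR-17 (y axis), with 49 large (blue) and 30 small (orange) subunit genes over the 1341 other genes of at least 100 TPM (grey, of which 35 lie outside the axes). The members sit in a band between about 0.1 and 0.2 on the miR-17 axis and around 0 on the let-7a axis, and RPL7L1 is below 0 on both.

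Transcript length moved with these differences among the other genes, so members and other abundant genes were set side by side by the length of the principal GENCODE 29 transcript. Members averaging 100 TPM or more had a median length of 873.5 nt and other genes at this level 1996 nt. Among other genes under 1000 nt (208 genes) the median difference from the control was 0.07 with methylated let-7a, 0.13 with native let-7a, 0.26 with methylated miR-17 and 0.16 with native miR-17. Members of this length (44 genes) had 0.16, 0.17, 0.31 and 0.16. Short abundant genes in general thus shared most of the shift with methylated miR-17, native let-7a and native miR-17, and less of it with methylated let-7a.

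The pictures parted for longer transcripts. Other genes of 2000 nt or more (653 genes) had medians of -0.05, -0.0036, -0.05 and 0.0042 for methylated let-7a, native let-7a, methylated miR-17 and native miR-17 against the control, whereas the 15 members whose principal transcript is this long had 0.16, 0.15, 0.30 and 0.17. For methylated against native miR-17, other genes under 1000 nt had a median of 0.10 and those of 2000 nt or more -0.06, against 0.15 and 0.14 for members. For methylated against native let-7a the other genes had -0.08 and -0.04, and the members 0.022 and 0.0006. Spearman's rho between length and difference over 12067 other genes was -0.38 for methylated miR-17 against the control and -0.43 against native miR-17, and over 80 members -0.13 and -0.09. The lengths come from a newer annotation than that of the table, the long transcripts of some members carry 3′ ends that these cells may not use, and the part of length in the members' shift was not tested.

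**Figure D5:**
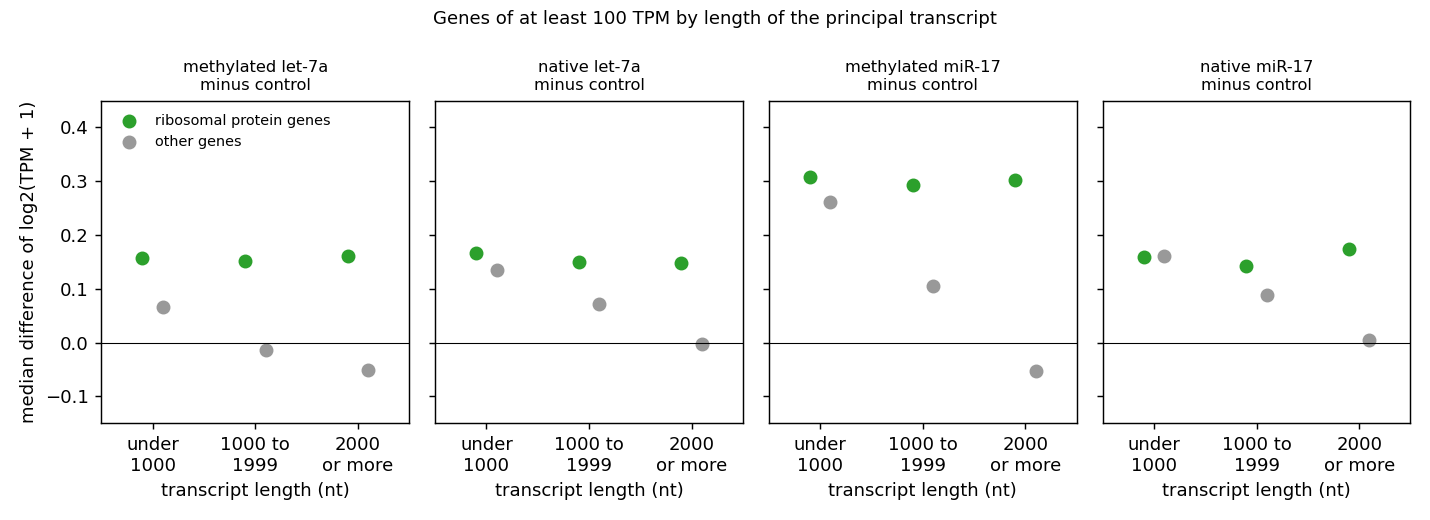
Median difference of log2(TPM + 1) from the control (y axis) for members (green) and other genes (grey) averaging 100 TPM or more, by length of the principal transcript (x axis), 1 panel per microRNA library. The grey points are lower for longer transcripts, and the green points stay level.

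The starts of the genes were read from RefSeq (GRCh38.p14), which gave a start sequence for 66 of the 86 members. A start was counted as pyrimidine-rich when the first base was a C followed by at least 4 bases that were each C or T, on the gene's own strand. This held for 47 of 66 members (71.2%) and for 1404 of 27305 genes in all (5.14%), and within 5 bases of the annotated start for 81.8% and 25.2%. Windows of 15 bases before and 15 from the start are printed for genes at the ends of the comparisons, with the pyrimidine run in capitals. The first 6 have such a run and the last 4 have none at the annotated base.
RPL18 chr19:48619164-48619193, minus strand: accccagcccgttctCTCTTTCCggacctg
RPS16 chr19:39435935-39435964, minus strand: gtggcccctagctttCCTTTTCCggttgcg
RPS14 chr5:150449725-150449754, minus strand: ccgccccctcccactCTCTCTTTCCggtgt
RPL41 chr12:56116618-56116647, plus strand: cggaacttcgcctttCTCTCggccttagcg
RPLP1 chr15:69452803-69452832, plus strand: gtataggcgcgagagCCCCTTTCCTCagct
RPS25 chr11:119018329-119018358, minus strand: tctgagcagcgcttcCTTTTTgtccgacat
RPL4 chr15:66504841-66504870, minus strand: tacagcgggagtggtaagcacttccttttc
RPS15 chr19:1438381-1438410, plus strand: tgcgcaggcgcggaccaaagcgatctcttc
RPS26 chr12:56041903-56041932, plus strand: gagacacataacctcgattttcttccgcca
RPL7L1 chr6:42879601-42879630, plus strand: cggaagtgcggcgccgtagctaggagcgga

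Against the control, members with and without a pyrimidine start at the annotated base had similar medians. Within 5 bases of it 54 of 66 members had such a run, so some counted as without one have it nearby. The split therefore cannot set TOP mRNAs against other members. With methylated miR-17 against the control, the 47 members with a pyrimidine start had a median of 0.31 and the 18 tested members without one 0.29, and 21 and 6 of them were at least 25% above it. The corresponding medians were 0.17 and 0.14 with methylated let-7a, 0.17 and 0.17 with native let-7a, and 0.16 and 0.16 with native miR-17. Methylated was above native let-7a for 30 of the 47 with such a start (median 0.02) and for 7 of the 18 without (median -0.0088), and methylated above native miR-17 for 47 and 17 of them (medians 0.16 and 0.13). Genes with and without a run at the annotated base lay at both ends. RPL18 and RPS16 with one and RPS15 and RPS26 without were high, and RPS25 with one and RPL4 without were low. Outside the members, 652 tested genes with such a start had medians of -0.03, 0.0022, -0.05 and 0 for methylated let-7a, native let-7a, methylated miR-17 and native miR-17 against the control, near those of all genes.

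Seed matches of the transfected microRNAs were rare in the 3′ untranslated regions (3′ UTRs) of members, which are short. The principal transcripts of 80 tested members had a median 3′ UTR of 82 nt, against 1014 nt for 11926 other tested genes. A site was a match to bases 2 to 8, or to bases 2 to 7 followed by an A. A let-7a site was present in 7 of 80 members (8.75%) and in 15.3% of other genes, and a miR-17 site in 7 of 80 members (8.75%) and in 27.3% of other genes. In the longest annotated 3′ UTR the counts were 9 and 12 members. The sites with a match to bases 2 to 8 followed by an A, and the let-7a site of RPL23A, are printed with the matched bases in capitals.
RPL14 let-7a site, chromosome 3: caattcttactaatCTACCTCA
RPL23A let-7a site, chromosome 17: cttatccttttgaaaTACCTCA
RPL37A miR-17 site, chromosome 2: aggatcgtgccactGCACTTTA

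RPL14, which also holds miR-17 matches, had 1668.6 TPM with methylated let-7a, 1624.6 TPM with native let-7a, 1833.6 TPM with methylated miR-17, 1510.9 TPM with native miR-17 and 1532.6 TPM in the control. It was thus above the control with both let-7a forms and with methylated miR-17, and slightly below it with native miR-17 (-0.02), its lowest library. RPL23A had 1602.7 TPM with methylated let-7a and 1566.9 TPM with native let-7a, against 1504.4 TPM in the control. RPL37A had 922.7 TPM with methylated miR-17 and 797.3 TPM with native miR-17, against 692 TPM in the control. The RPL14 let-7a site of 8 bases lies 5464 nt into an annotated 3′ UTR of 6355 nt, and whether these cells use that end was not tested.

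Ribosomal proteins and relatives outside the chosen names behaved in part alike. FAU, which encodes a small subunit protein fused to a ubiquitin-like domain, had 879.8 TPM with methylated let-7a, 895.9 TPM with native let-7a, 942 TPM with methylated miR-17, 877.2 TPM with native miR-17 and 787.1 TPM in the control. It shared the members' highest and lowest library. RPL36AL, a paralog of RPL36A, did not, at 887, 908.8, 971.6 and 845.7 TPM in them and 891.6 TPM in the control. Among the 74 mitochondrial ribosomal proteins, encoded by other genes for another ribosome, 41, 58, 58 and 48 were above the control with methylated let-7a, native let-7a, methylated miR-17 and native miR-17 (medians 0.0093, 0.13, 0.17 and 0.13). The shares of all genes above the control were 41%, 49.9%, 42.1% and 51.5% in that order. With methylated miR-17, 13 of the 74 were at least 25% higher, against 14.9% of all genes, and 2 lower by that factor, against 25.2% of all genes.

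Among 23 other mRNAs known for a TOP start, mostly translation factors and including FAU, 16 were above the control with methylated let-7a, 16 with native let-7a, 16 with methylated miR-17 and 11 with native miR-17, with medians of 0.05, 0.08, 0.07 and -0.02. Above the control were 41%, 49.9%, 42.1% and 51.5% of all genes in that order. The highest of the list with methylated miR-17 was GNB2L1, at 1578.3 TPM against 1257 TPM in the control. Like FAU, GNB2L1 shared the members' highest and lowest library. The lowest with methylated miR-17 was EIF4B, an initiation factor, at 446.5 TPM against 537.6 TPM in the control. EIF2S3, another initiation factor, was the highest with native miR-17, with a difference of 0.34 from the control (354.2 TPM against 279.6 TPM). In each of these comparisons the list's median was below that of either subunit. Methylated was above native miR-17 for 21 of 23 genes of the list (median 0.09), and methylated above native let-7a for 6 of 23 (median -0.03). The shares of all genes were 28.4% and 39.8%, and those of other genes averaging 100 TPM or more 51.9% and 28.3%.

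Among 18 tested genes that regulate TOP mRNAs or growth through mTOR and MYC, LARP1, which binds the TOP motif, was lowest with methylated miR-17. It had 61.5 TPM with methylated let-7a, 62 TPM with native let-7a, 46.5 TPM with methylated miR-17, 63.6 TPM with native miR-17 and 63.5 TPM in the control, so that methylated miR-17 alone was apart (-0.44 against the control and against native miR-17). EIF4EBP1, the repressor of cap binding that mTOR inactivates, had 204.8, 217.3, 358.8 and 328.2 TPM in the microRNA libraries and 189.2 TPM in the control, and so was high with both miR-17 forms. Of the 18 genes, 4, 8, 6 and 10 were above the control with methylated let-7a, native let-7a, methylated miR-17 and native miR-17. Their medians were -0.06, -0.03, -0.08 and 0.01, against -0.04, 0, -0.06 and 0.02 for all genes. By the factor of the 25% rule, 3 were lower and 4 higher with methylated miR-17 than in the control. The shares of all genes were 25.2% and 14.9%. Against native miR-17, LARP1 alone was lower by it, as were 11% of all genes. The part of these genes in the members' values was not tested.

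Among genes that build ribosomes, the assembly factors and RNA polymerase I genes did not show the members' nearly uniform shift. Of 37 assembly factors, 19, 24, 19 and 16 were above the control with methylated let-7a, native let-7a, methylated miR-17 and native miR-17 (medians 0.0021, 0.10, 0.0031 and -0.05), and of 14 subunits and factors of RNA polymerase I, which transcribes ribosomal RNA, 7, 10, 4 and 6 were (medians 0.0047, 0.04, -0.08 and -0.05). The shares of all genes above the control were 41%, 49.9%, 42.1% and 51.5% in that order. Methylated was below native let-7a for 32 of 37 assembly factors (median -0.10). It was also below for 8097 of all 14180 genes and for 961 of 1341 other genes averaging 100 TPM or more. The highest assembly factor with both let-7a forms was WDR12, of a complex that matures the large subunit, at 21.3 TPM with methylated and 22.2 TPM with native let-7a, against 15.2 TPM in the control. Of 5 chaperones of ribosomal proteins, 3 were above the control with methylated let-7a, 5 with native let-7a, 5 with methylated miR-17 and 4 with native miR-17. Their medians were 0.03, 0.10, 0.12 and 0.25. Among them TSR2, the carrier of RPS26, was highest with both miR-17 forms. It had 75.8 TPM with methylated and 82.9 TPM with native miR-17, against 58.3 TPM in the control.

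Of MDM2, its relative MDM4 and CDKN1A, 2 were above the control with methylated let-7a, 2 with native let-7a, 0 with methylated miR-17 and 1 with native miR-17. The shares of all genes above it were 41%, 49.9%, 42.1% and 51.5% in that order. CDKN1A, an inhibitor of the cell cycle and a textbook target of the miR-17 family, had 442.2 TPM with methylated let-7a, 483.4 TPM with native let-7a, 190.7 TPM with methylated miR-17, 187.6 TPM with native miR-17 and 430.8 TPM in the control. Both miR-17 libraries were thus alike for CDKN1A (-1.17 for methylated and -1.20 for native miR-17 against the control), whereas they differed for the ribosomal protein genes.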

How the data were processed

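RNA of 5 libraries of transfected HCT116 cells, 1 per group, was analysed from the single table of gene-level TPM values that the authors deposited, rounded to 1 decimal. Per the labels' protocols, total RNA was made into stranded libraries after depletion of ribosomal RNA, and per the submitters' processing notes the build was hg19. Aligner, counter and annotation: not given in the sources used here. TPM keeps no depth, so the depth per library is unknown and no interval or detection floor is given. How reads were shared among near-identical rows, such as pseudogenes, is not known.

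Groups were taken from the labels, read from the transfection field. Differences of log2(TPM + 1) were taken in 6 comparisons for the 14180 genes averaging 1 TPM or more, with no test. The computation was tested on simulated data. Transcript lengths and 3′ UTRs came from the principal transcript in GENCODE 29, and starts and microRNAs from RefSeq. Python 3.11.15, pandas 2.3.3, numpy 2.4.6, scipy 1.17.1 and matplotlib 3.10.9 were used.

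Genes named are members of the role groups, the 5 with the highest mean, those below 1 TPM, and the 2 highest and 2 lowest per comparison and subunit with a mean of at least 20 TPM. Genes outside the members are the extremes of their lists. RPL37A was chosen after its values were seen, for its site, RPL36AL as a paralog, and RPS12 and RPS18 by level. Values of some genes are not reported here; they are left out of the points drawn and of the gene lists, while counts, sums and medians over all members include them. The members and lists were chosen with earlier results of these data known. Alternatives covered the pseudocount, the filter on low values, the scaling, the control, and which rows count as members.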

Additional observations from a re-analysis of the deposited data

Results flagged for a closer look

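RPL36 and RPLP1, both of the large subunit, differed in opposite directions between the methylated and native forms of the 2 microRNAs by more than 0.1 on the log2(TPM + 1) scale. RPL36 was at -0.14 for methylated minus native let-7a and at 0.13 for methylated minus native miR-17. RPLP1 was at -0.16 for let-7a and at 0.16 for miR-17. Each value rests on 1 library per form, and the difference between the microRNAs was not tested.

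Rows named as ribosomal protein pseudogenes, which are not among the members, carried signal. Over 848 rows their sum was 4312 TPM with methylated let-7a, 4434.7 TPM with native let-7a, 4629.3 TPM with methylated miR-17 and 4249.8 TPM with native miR-17, each above the 3974.4 TPM of the control. Most of it came from RPS2P46, with a mean of 2732 TPM, and RPL9P8, with a mean of 1432 TPM, which was 1.40 to 1.49 times the level of RPL9 itself in the 5 libraries. Whether these reads came from the pseudogenes or from RPS2 and RPL9 was not tested.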

How the results depend on the processing

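No paired analysis was possible because each group holds 1 library. Pseudocounts of 0.1 and 5, a minimum mean of 5 TPM or none, standard ribosomal proteins only, and pseudogene rows added to their parents kept all 13 counts within 1.5 times. The count of members at least 25% higher with methylated miR-17 than in the control (35) was 22 without mitochondrially encoded genes, 53 with the members left out of the total, and 56 centred on the median of all genes. With the mean TPM of the other microRNA's libraries in place of the control it was 0, and the members higher were 6 large and 3 small with methylated let-7a, 6 and 4 with native let-7a, and 23 and 19 with native miR-17. The median differences then were -0.080 (large) and -0.084 (small) with methylated let-7a, -0.089 and -0.088 with native let-7a, and -0.0024 for the large subunit with native miR-17. RPL18 was then at -0.12 with methylated and -0.16 with native let-7a. For both let-7a forms that reference held methylated miR-17, the highest library for 74 of 81 members. Their values below 0 therefore do not show how far the shift rests on the control library.

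Further settings were chosen after seeing the data. Centring on other genes of at least 100 TPM gave 22 members at least 25% higher with methylated miR-17, and 28 of 32 small subunit members higher with methylated than native let-7a. Centring on other genes of at least 100 TPM and under 1000 nt moved the median of all genes by -0.26 with methylated miR-17 against the control. The other settings that keep the control moved it by less than 0.1 in each comparison. It left 2 members at least 25% higher, gave 30 large and 19 small members higher with native let-7a, 22 and 16 with native miR-17, 30 small members higher with methylated than native let-7a, and a large subunit median of -0.0034 with native miR-17. With methylated miR-17 the medians stayed above 0 under every setting run, from 0.04 (large) and 0.06 (small) upward against the control and from 0.04 and 0.05 upward against native miR-17. Depth, which limits low genes most, is unknown. The causes were not tested.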
